A study of Mus musculus with 15 samples.

Results

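Genes of macrophages, dendritic cells and neutrophils, 39 in all, were followed across arrays of small cell lung cancer and normal lung. They were taken from a list written for this work, and each gene was read from its brightest probe set, a probe set being a group of probes for 1 transcript. Of the 39 listed genes, 35 were measured among 18193 genes on the array, whereas Ear2, Clec9a, Ly6g and Retnlg were not analysed here. The array's lower limit was taken as the highest lower quartile of any array, a log2 level of 5.05, and 34 of the 35 genes lay above it in at least 1 group and 32 in every group. The exception in all groups was Xcr1.

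Small cell lung cancer is an aggressive neuroendocrine tumour. It was modelled in mice in which an adenovirus carrying Cre recombinase was given through the nose and deleted floxed alleles in the airway cells it entered. The groups were 3 tumours with Rb, p53 and p130 deleted, taken 6 months after infection and numbered 11, 12 and 13, 10 tumours with Rb and p53 deleted, taken after 8 to 12 months and numbered 1 to 10, and 2 wild-type normal lungs of adult mice without tumours. The promoter driving Cre is not given in the labels, and cells the virus did not enter keep intact alleles. Whether any macrophages or other blood-derived cells took up the virus is not given either. The series was made to compare the mouse tumours with the human disease, and no human tumour is used here. Whether each array is a mouse of its own is not stated, so a p-value reflects the spread among samples, which may be technical. Levels are log2 values from robust multi-array averaging, in which 1 unit is a doubling, and the number of arrays limits their precision.

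Macrophages, dendritic cells and neutrophils are the phagocytes of the lung. Alveolar macrophages live in the air spaces, where they clear surfactant under the control of the cytokine GM-CSF and the nuclear receptor Pparg, and they carry Marco and Siglecf. Macrophages within tissues and tumours often make the 3 chains of C1q, which opens the classical complement pathway by binding antibody or dying cells. Neutrophils store calprotectin, the pair S100a8 and S100a9, and granule proteins such as Ltf and Ngp.

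Markers of the tumour and of the lung around it were read beside these genes. All 8 measured neuroendocrine markers and all 9 cell cycle markers were called higher in both tumour groups than in normal lung. Alveolar type 2 cell markers, the surfactant-making cells, averaged 10.18 to 10.63 in Rb/p53/p130 tumours, 8.74 to 11.73 in Rb/p53 tumours and 12.57 and 13.02 in normal lung, and 4 of 9 were called lower in Rb/p53/p130 and 7 of 9 in Rb/p53 tumours. Endothelial markers averaged 8.07 to 8.19 in Rb/p53/p130 tumours, 7.31 to 9.14 in Rb/p53 tumours and 11.13 and 11.68 in normal lung, and 9 of 10 were called lower in each tumour type. Fewer cells of a type and less RNA per cell cannot be told apart in such tissue samples.

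The sequences before 6 of the genes are shown because their levels carry the results below: a pair of C1q genes and Mmp12 that were higher in tumours, Marco of alveolar macrophages, and the calprotectin genes that moved together between tumours. They are the 250 bases before the annotated start, from RefSeq on build GRCm38.p6, printed 5′ to 3′ on the gene's own strand. The windows are C1qb at chr4:136886201-136886450 (minus strand), C1qc at chr4:136892915-136893164 (minus), Mmp12 at chr9:7344147-7344396 (plus), Marco at chr1:120505025-120505274 (minus), S100a8 at chr3:90668821-90669070 (plus) and S100a9 at chr3:90695722-90695971 (minus). Capitals mark GAGGAA, or TTCCTC where it lies on the opposite strand, the core bound by PU.1, a transcription factor of macrophages and neutrophils. Mmp12 and the calprotectin genes were added to this display after their values were seen.

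C1qb: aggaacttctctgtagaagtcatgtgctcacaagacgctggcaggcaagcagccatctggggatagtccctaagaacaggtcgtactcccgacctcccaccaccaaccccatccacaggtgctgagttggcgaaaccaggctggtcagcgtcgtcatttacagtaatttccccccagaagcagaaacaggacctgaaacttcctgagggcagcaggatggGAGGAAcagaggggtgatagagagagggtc
C1qc: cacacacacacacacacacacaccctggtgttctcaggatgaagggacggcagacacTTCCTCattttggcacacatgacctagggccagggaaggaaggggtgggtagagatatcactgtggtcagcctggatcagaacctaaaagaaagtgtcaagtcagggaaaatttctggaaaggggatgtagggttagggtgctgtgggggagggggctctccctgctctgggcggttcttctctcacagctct
Mmp12: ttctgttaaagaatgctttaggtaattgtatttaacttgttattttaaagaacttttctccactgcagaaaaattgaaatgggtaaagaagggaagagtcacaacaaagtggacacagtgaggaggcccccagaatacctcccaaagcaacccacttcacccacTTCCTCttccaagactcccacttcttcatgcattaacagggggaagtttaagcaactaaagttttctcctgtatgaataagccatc
Marco: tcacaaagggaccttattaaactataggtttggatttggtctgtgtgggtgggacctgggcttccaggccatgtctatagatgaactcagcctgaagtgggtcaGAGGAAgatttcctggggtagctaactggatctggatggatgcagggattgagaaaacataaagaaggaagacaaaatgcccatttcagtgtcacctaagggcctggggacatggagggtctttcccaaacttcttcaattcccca
S100a8: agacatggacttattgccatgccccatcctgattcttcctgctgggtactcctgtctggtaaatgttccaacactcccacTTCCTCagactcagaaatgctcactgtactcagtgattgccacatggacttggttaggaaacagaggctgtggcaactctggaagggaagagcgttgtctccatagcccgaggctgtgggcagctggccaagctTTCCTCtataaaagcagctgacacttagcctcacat
S100a9: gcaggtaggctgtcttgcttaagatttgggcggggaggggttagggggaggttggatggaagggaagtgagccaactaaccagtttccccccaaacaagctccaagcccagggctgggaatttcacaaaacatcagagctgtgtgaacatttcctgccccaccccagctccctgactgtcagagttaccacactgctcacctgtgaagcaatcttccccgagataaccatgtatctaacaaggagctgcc

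The core was searched on both strands in all 32851 promoter windows of this length in the table and was found in 7639 of them, 23.3%. Of 33 listed genes with a window, 17 held it, 51.5%. In C1qb it lay 30 to 25 bases before the start, in Mmp12 86 to 81, in Marco 146 to 141 and in C1qc 193 to 188. S100a8 held 2 matches, and S100a9 and Chil3 held none. The AP-1 motif TGANTCA was in 2217 windows, 6.75%, and in 3 of the 33, those of Plet1, Trem2 and Cd68, and it overlapped no PU.1 core there. The C1qc window ends at an alternative start inside the annotated gene. On chromosome 4 the order of the protein-coding genes is C1qb, C1qc and C1qa with no other between them, and on chromosome 3 S100a8 and S100a9 are likewise adjacent. A match is a description of letters and was not tested as a binding site.

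Against normal lung, the listed genes were called in both directions. In Rb/p53 tumours 6 of 35 genes were called higher and 8 lower at a limma adjusted p under 0.05, which is 40% of them, where 38.8% of all 18193 genes were called (18.3% higher and 20.5% lower). In Rb/p53/p130 tumours 4 were called higher and 9 lower, 37.1% of them, where 30.9% of all genes were called (15.3% higher and 15.6% lower). The share called was thus near that of the whole array in Rb/p53 tumours. In Rb/p53/p130 tumours it was somewhat above that of the whole array, with more calls lower than higher. The list's median log2 change was -0.33 for Rb/p53 and -0.43 for Rb/p53/p130 tumours, against -0.025 and -0.02 for all genes. Both comparisons share the same 2 normal lungs. Counts of called genes in parts of the list and in other lists below are to be read beside these same shares of all genes. The arrays of 12 genes did not overlap between Rb/p53 tumours and normal lung, where 38.4% of all genes did not, and those of 24 genes did not for Rb/p53/p130 tumours, where 66% of all genes did not.

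**Figure D1:**
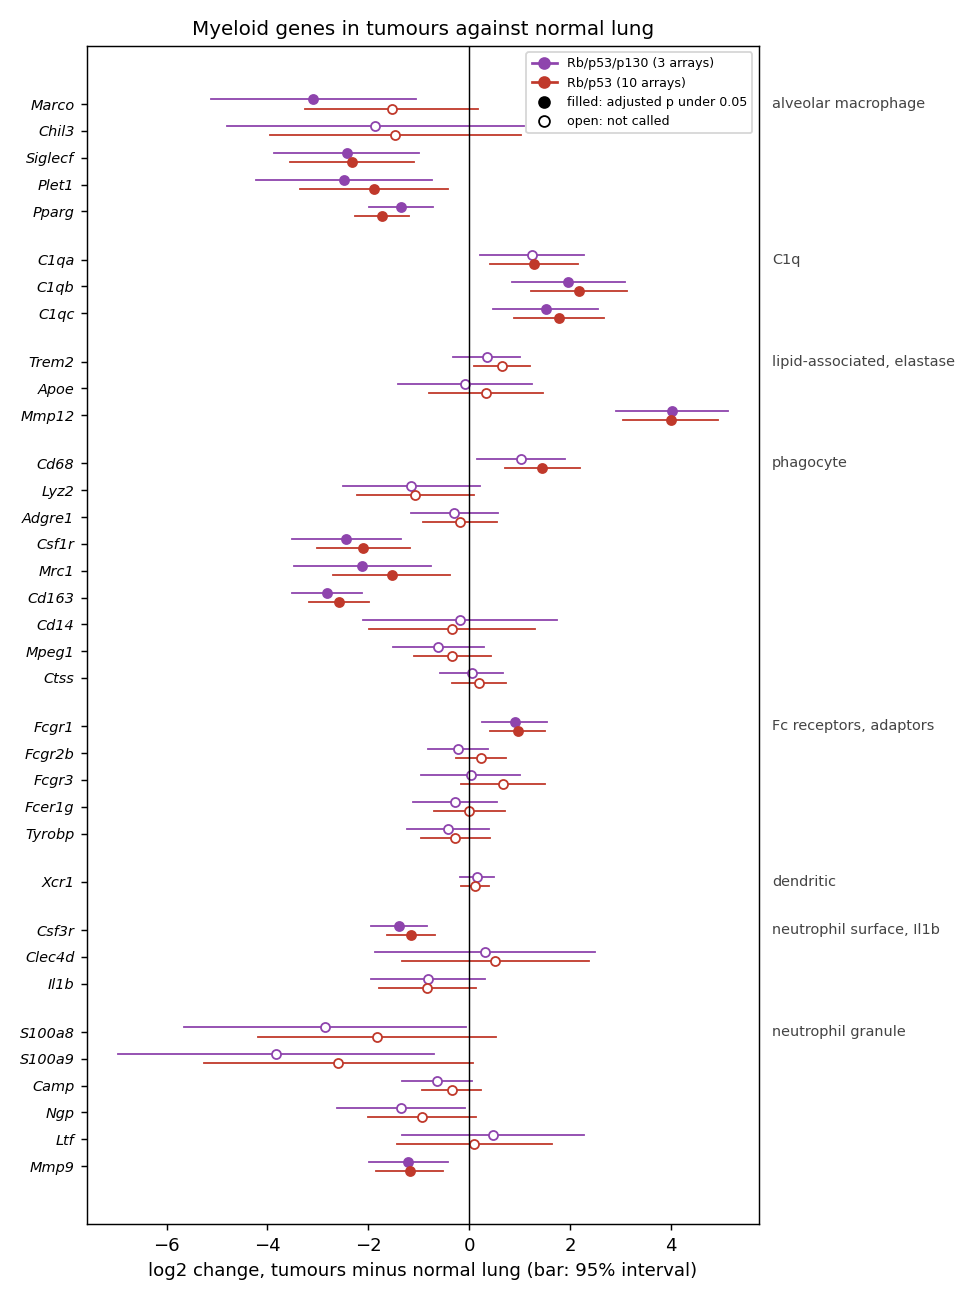
Log2 change of each of 35 genes in tumours minus normal lung (x axis), grouped by role down the page. Points are limma estimates, bars 95% intervals, and filled points are called at an adjusted p under 0.05; the C1q genes and Mmp12 lie right of 0, the alveolar macrophage genes left of it.

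The genes called higher in both tumour types were C1qb, C1qc, Mmp12 and Fcgr1, and C1qa and Cd68 were called higher in Rb/p53 tumours. C1qb encodes the B chain of C1q. Its level was 10.75, 10.17 and 10.08 in Rb/p53/p130 tumours, ran from 9.66 through a median of 10.56 to 11.44 in Rb/p53 tumours, and was 7.49 and 9.23 in normal lung. Every tumour lay above both normal lungs, and normal lung 1 lay well below normal lung 2. The log2 change of C1qb was 2.18 ± 0.44 (SE) in Rb/p53 tumours, 4.53-fold, with a limma adjusted p of 0.00142, and 1.97 ± 0.52 in Rb/p53/p130 tumours, 3.92-fold, with an adjusted p of 0.0116.

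C1qc, the C chain, stood at 9.62, 9.12 and 9.19 in Rb/p53/p130 tumours, from 8.77 through 9.68 to 10.57 in Rb/p53 tumours and at 7.20 and 8.37 in normal lung, again without overlap. It rose by 1.79 ± 0.41 in Rb/p53 tumours (limma adjusted p = 0.00383) and by 1.52 ± 0.49 in Rb/p53/p130 tumours (0.0334). C1qa, the A chain, was at 10.56, 10.29 and 10.30 in Rb/p53/p130 tumours, from 9.67 through 10.38 to 11.29 in Rb/p53 tumours and at 8.40 and 9.86 in normal lung. Normal lung 2 lay within the range of the Rb/p53 tumours for C1qa. Its change was 1.28 ± 0.41 in Rb/p53 tumours (limma adjusted p = 0.0254), and 1.25 ± 0.48 in Rb/p53/p130 tumours, where it was not called (0.0723).

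Normal lung 1 decided these calls. With normal lung 2 as the only lung, the change in Rb/p53 tumours was 1.31 for C1qb (limma adjusted p = 0.0933), 1.20 for C1qc (0.141) and 0.55 for C1qa (0.507), none of them called. In Rb/p53/p130 tumours it was then 1.10 for C1qb (0.233) and 0.94 for C1qc (0.351), and the call of C1qc was also lost without tumour 11, 12 or 13 (1.37 to 1.62, 0.0562 to 0.102). C1qa was called in Rb/p53/p130 tumours without normal lung 2 (1.98, 0.0216) and with array weights (1.24, 0.0241). C1qb had 2 more probe sets, which were higher by 1.00 and 0.80 in Rb/p53 tumours and were not called (0.0642 and 0.0635).

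RNA quality moved with the groups as well. The difference between the 3' and 5' Gapdh control probe sets, which grows as RNA is shortened, was -0.032 to 0.0813 in Rb/p53/p130 tumours, -0.0688 to 0.357 in Rb/p53 tumours and 0.877 and 0.719 in normal lung, so it did not overlap between tumours and lung and its effect and that of group cannot be told apart by design. With this difference as a covariate, 0 of the 35 genes were called in any comparison (4, 4 and 1 had an unadjusted p under 0.05 in Rb/p53 against normal lung, Rb/p53/p130 against normal lung and between genotypes), and 6.08%, 5.17% and 0.0989% of all genes were. The change in Rb/p53 tumours was then 0.19 for C1qb, 3.46 for Mmp12 (limma adjusted p = 0.0947) and -2.32 for Cd163 (0.0755), none of them called. The covariate turned the sign of C1qa and C1qc in Rb/p53 tumours and of C1qb and C1qc in Rb/p53/p130 tumours, with values given below.

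Other genes of the classical pathway were called lower or were not called. Of 9 other measured complement genes, Rb/p53 tumours had 0 called higher and 5 lower, with a median change of -1.62, and Rb/p53/p130 tumours had 0 and 4. The proteases that C1q activates were among them: C1s1 fell by 2.61 ± 0.27 and C1ra by 2.36 ± 0.44 in Rb/p53 tumours. C2, which the activated complex cleaves, fell by 1.83 ± 0.20. In Rb/p53/p130 tumours the changes were -2.89 ± 0.32 for C1s1, -1.97 ± 0.52 for C1ra and -1.84 ± 0.23 for C2.

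Mmp12, the macrophage elastase that cuts elastin, had the largest rise among the 35 genes. It was at 10.48, 10.27 and 9.03 in Rb/p53/p130 tumours, from 8.79 through 10.03 to 10.86 in Rb/p53 tumours, and at 5.45 and 6.36 in normal lung. All 13 tumours lay more than 2 units above the higher lung. The change was 4.00 ± 0.44 in Rb/p53 tumours, 16.0-fold (limma adjusted p = 6.96e-06), and 4.02 ± 0.52 in Rb/p53/p130 tumours, 16.3-fold (4.54e-05), and both calls were kept whichever array was left out.

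Trem2 and Apoe, a lipid receptor of macrophages and a lipid carrier often named beside C1q in tumour macrophages, were not called. For Trem2 the levels were 7.96, 7.48 and 7.01 in Rb/p53/p130 tumours, 7.37 through 7.77 to 8.29 in Rb/p53 tumours and 6.81 and 7.47 in normal lung. The groups overlapped, with a change of 0.65 ± 0.26 in Rb/p53 tumours (limma adjusted p = 0.0742) and 0.35 ± 0.31 in Rb/p53/p130 tumours (0.478). Apoe levels were 10.91, 11.13 and 9.94 in Rb/p53/p130 tumours, 10.02 through 11.09 to 12.25 in Rb/p53 tumours and 10.05 and 11.44 in normal lung, a change of 0.33 ± 0.53 (0.687) in Rb/p53 and -0.086 ± 0.62 (0.946) in Rb/p53/p130 tumours. Hepatocytes also make Apoe, and the mean of 8 hepatocyte markers was 9.80 in tumour 12 and 7.71 in tumour 2, against at most 6.52 in the other tumours and 5.41 and 5.33 in normal lung; their part in the Apoe level was not tested.

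**Figure D2:**
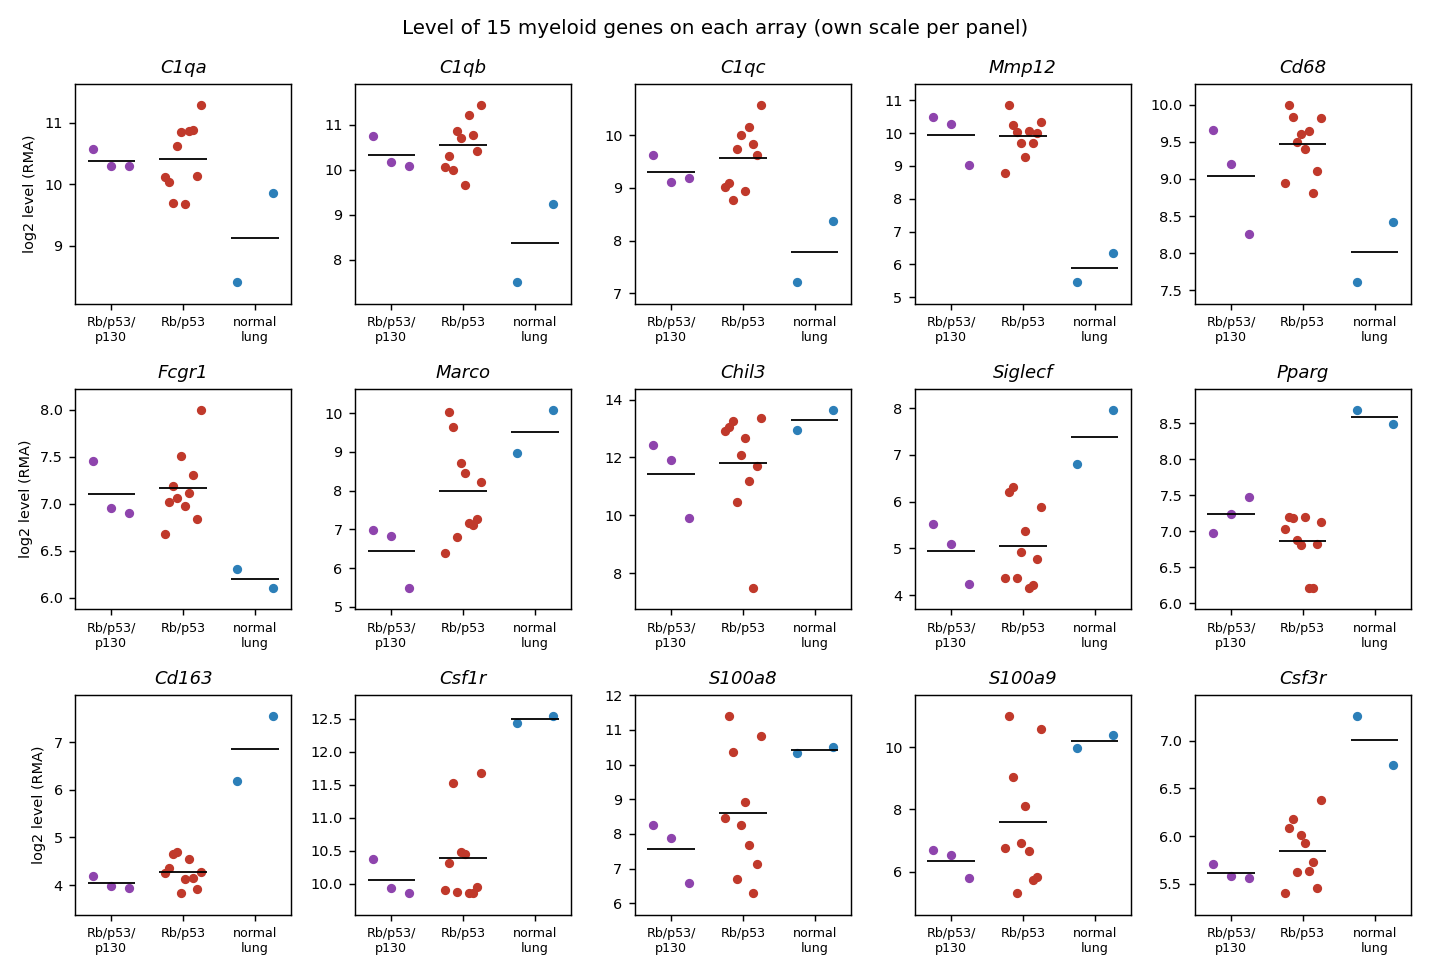
Log2 level of 15 genes on every array (y axis, own scale per panel), with Rb/p53/p130, Rb/p53 and normal lung arrays from left to right. Points are arrays and lines group means; all tumours lie above both lungs for C1qb, C1qc, Mmp12 and Fcgr1, and below both for Siglecf, Pparg, Cd163, Csf1r and Csf3r.

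Pparg, Siglecf and Plet1 of the alveolar macrophage list were called lower in both tumour types and Marco in Rb/p53/p130 tumours, whereas Chil3 was called in neither. Of the 5 measured, Rb/p53 tumours had 3 called lower, with a median change of -1.72. Rb/p53/p130 tumours had 4, with a median of -2.43, and 0 were higher in either. Of all genes 20.5% and 15.6% were called lower in these comparisons. Pparg, which drives the alveolar macrophage programme and also acts in fat and epithelial cells, was the most even of them. It stood at 6.98, 7.24 and 7.48 in Rb/p53/p130 tumours, from 6.21 through 6.95 to 7.19 in Rb/p53 tumours and at 8.68 and 8.49 in normal lung. All tumours lay more than 1 unit below both lungs, and the change was -1.72 ± 0.25 in Rb/p53 (limma adjusted p = 9.47e-05) and -1.35 ± 0.30 in Rb/p53/p130 tumours (0.00349), kept without any single array.

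Siglecf, a sialic acid receptor of alveolar macrophages and eosinophils, was at 5.52, 5.10 and 4.24 in Rb/p53/p130 tumours, from 4.15 through 4.84 to 6.32 in Rb/p53 tumours, and at 6.81 and 7.95 in normal lung. The levels of 6 of 10 Rb/p53 tumours and of tumour 13 lay below the array's lower limit, so the size of its change is uncertain. It fell by 2.32 ± 0.57 in Rb/p53 tumours (limma adjusted p = 0.00581), and by 2.43 ± 0.68 in Rb/p53/p130 tumours, at least 5.03-fold (0.0157). Without normal lung 2 the changes were -1.75 (0.134) and -1.86 (0.164), and without tumour 13 the second was -2.07 (0.06), none of them called.

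Marco, a scavenger receptor for inhaled particles and bacteria, was at 6.99, 6.83 and 5.49 in Rb/p53/p130 tumours, from 6.39 through 7.75 to 10.04 in Rb/p53 tumours, and at 8.98 and 10.07 in normal lung. The Rb/p53/p130 tumours lay below both lungs, while Rb/p53 tumours 2 and 3 reached lung levels. A second, dimmer probe set of Marco changed by -0.94 ± 0.37 in Rb/p53/p130 tumours and was not called (limma adjusted p = 0.0772). The brightest probe set changed by -3.09 ± 0.95 in Rb/p53/p130 tumours, which was called (limma adjusted p = 0.0268). In Rb/p53 tumours it changed by -1.54 ± 0.81, which was not called (0.169). The call was lost without normal lung 1 (-3.64, 0.0625), normal lung 2 (-2.54, 0.187) or tumour 13 (-2.62, 0.0917).

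Plet1, found on alveolar macrophages and epithelial cells, was at 9.11, 9.16 and 7.76 in Rb/p53/p130 tumours, from 7.44 through 9.73 to 10.45 in Rb/p53 tumours and at 11.19 and 11.12 in normal lung, with no overlap. Its change of -1.89 ± 0.69 in Rb/p53 tumours was narrowly called (limma adjusted p = 0.0493), and so was that of -2.48 ± 0.81 in Rb/p53/p130 tumours (0.0365). The first call was lost without either lung or any of tumours 1, 6, 8, 9, 11 and 12 (-1.92 to -1.73, 0.0561 to 0.218), and the second without either lung or any of tumours 11, 12 and 13 (-2.72 to -2.03, 0.0515 to 0.156). Neither of its other 2 probe sets was called.

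Chil3, a chitinase-like protein abundant in alveolar macrophages, was among the brightest of the genes and had the widest range among Rb/p53 tumours. It stood at 12.43, 11.92 and 9.92 in Rb/p53/p130 tumours, from 7.48 through 12.38 to 13.38 in Rb/p53 tumours, and at 12.94 and 13.62 in normal lung. Rb/p53 tumours 2, 3 and 10 reached the range of normal lung, while tumour 8 was lowest. The changes of -1.46 ± 1.17 and -1.86 ± 1.38 in Rb/p53 and Rb/p53/p130 tumours were not called (limma adjusted p = 0.384 and 0.375). Chil4 is a close relative of Chil3, and a probe set may read both.

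Of 12 other alveolar macrophage genes, Rb/p53 tumours had 2 called higher and 3 lower, and Rb/p53/p130 tumours had 2 and 5. The falls in Rb/p53 tumours were Cidec, a lipid droplet protein, by 1.98 ± 0.17, Lpl, lipoprotein lipase, by 1.79 ± 0.45, and Chil4 by 1.26 ± 0.28. The rises were Bhlhe41, a transcription factor, by 1.10 ± 0.22, and Cd9, a tetraspanin of many cell types, by 1.03 ± 0.20, both named after their values were seen. Alveolar type 2 and endothelial markers, given above, fell in the same tumours, and their part in these changes was not tested.

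The macrophage receptors Cd163, Csf1r and Mrc1 were called lower in both tumour types, and the lysosomal protein Cd68 was called higher in Rb/p53 tumours. Of 9 general phagocyte genes, Rb/p53 tumours had 1 called higher and 3 lower, and Rb/p53/p130 tumours had 0 and 3. The share of all genes called was 38.8% and 30.9% in these comparisons. Cd163, which takes up haemoglobin bound to haptoglobin, was at 4.19, 3.99 and 3.95 in Rb/p53/p130 tumours, from 3.83 through 4.27 to 4.69 in Rb/p53 tumours, and at 6.17 and 7.55 in normal lung. All tumours lay below the array's lower limit and both lungs above it, so the difference is at least 3.51-fold in each comparison. Its limma adjusted p was 5.22e-06 for Rb/p53 and 1.59e-05 for Rb/p53/p130 tumours, and both calls were kept without any single array.

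Csf1r, the receptor for CSF1 on which most macrophages depend, was at 10.37, 9.94 and 9.85 in Rb/p53/p130 tumours, from 9.85 through 10.13 to 11.68 in Rb/p53 tumours and at 12.44 and 12.54 in normal lung. It fell by 2.10 ± 0.43, 4.29-fold, in Rb/p53 tumours (limma adjusted p = 0.00161) and by 2.43 ± 0.51 in Rb/p53/p130 tumours (0.00254), in every leave-one-out fit. Its ligands fell too in Rb/p53 tumours: Csf1 by 1.21 ± 0.39 and Il34 by 0.91 ± 0.25. Csf2, which encodes GM-CSF, fell by 1.56 ± 0.26. In all, 0 of 6 CSF ligands and receptors were called higher and 3 lower in each tumour type, although Csf1 itself, at -1.29 ± 0.46, was not called in Rb/p53/p130 tumours (0.0563).

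Mrc1, the mannose receptor, was at 8.25, 7.98 and 6.67 in Rb/p53/p130 tumours, from 7.10 through 8.25 to 9.19 in Rb/p53 tumours and at 9.31 and 10.18 in normal lung. It fell by 1.54 ± 0.54 in Rb/p53 tumours (limma adjusted p = 0.0409) and by 2.12 ± 0.64 in Rb/p53/p130 tumours (0.0239). The first call was lost without either lung or tumour 1, 5, 6 or 9 (-1.97 to -1.10, 0.0513 to 0.343), and the second without normal lung 2 (-1.68, 0.189) or tumour 13 (-1.63, 0.0934).

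Cd68 was at 9.66, 9.20 and 8.26 in Rb/p53/p130 tumours, from 8.81 through 9.55 to 10.00 in Rb/p53 tumours, and at 7.61 and 8.42 in normal lung. The Rb/p53 tumours lay above both lungs, and tumour 13 lay between them. The rise of 1.45 ± 0.35, 2.74-fold, in Rb/p53 tumours was called (limma adjusted p = 0.00451) but not without normal lung 1 (1.05, 0.135). In Rb/p53/p130 tumours the change of 1.03 ± 0.41 was not called (0.082), and it was without tumour 13 (1.41, 0.0177) or with array weights (1.14, 0.0281).

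Lyz2, the lysozyme of macrophages and alveolar type 2 cells, was at 13.89, 13.75 and 12.55 in Rb/p53/p130 tumours, from 12.18 through 13.51 to 14.42 in Rb/p53 tumours and at 14.38 and 14.72 in normal lung. Only tumour 10 reached the lower lung, and the changes of -1.07 ± 0.54 and -1.15 ± 0.64 in Rb/p53 and Rb/p53/p130 tumours were not called (limma adjusted p = 0.155 and 0.218). Adgre1, the F4/80 antigen, Cd14, the lipopolysaccharide co-receptor, Mpeg1, a pore-forming protein, and Ctss, a lysosomal protease, changed by -0.34 to 0.19 in Rb/p53 and by -0.61 to 0.052 in Rb/p53/p130 tumours, and none was called. For Ctss the level was 11.99 to 13.12 in Rb/p53 tumours and 12.29 and 12.25 in normal lung.

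Of the 5 Fc receptor genes and adaptors, 1 was called, higher, in each tumour type, where 18.3% of all genes were higher in Rb/p53 and 15.3% in Rb/p53/p130 tumours. Fcgr1, the high-affinity IgG receptor, was at 7.45, 6.96 and 6.90 in Rb/p53/p130 tumours, from 6.67 through 7.08 to 7.99 in Rb/p53 tumours and at 6.30 and 6.10 in normal lung. All tumours lay above both lungs. It rose by 0.97 ± 0.25, 1.95-fold, in Rb/p53 tumours (limma adjusted p = 0.00882), lost without normal lung 2 (0.87, 0.106), and by 0.90 ± 0.30 in Rb/p53/p130 tumours (0.039), lost without either lung or tumour 11 or 12 (0.73 to 1.00, 0.0594 to 0.193). Its second probe set changed by 0.23 in Rb/p53 tumours (0.166).

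The shared signalling chain Fcer1g and the adaptor Tyrobp, which carry signals of Trem2 and other receptors, changed by 0.00048 and -0.27 in Rb/p53 tumours and by -0.28 and -0.43 in Rb/p53/p130 tumours. Fcgr3, the low-affinity activating receptor, changed by 0.67 ± 0.39 and 0.034 ± 0.46, and the inhibitory Fcgr2b by 0.23 ± 0.24 and -0.23 ± 0.28. None of these 4 was called in either comparison.

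Among 17 other macrophage genes, 3 were called higher and 7 lower in each tumour type, with median changes of -0.50 and -0.39 in Rb/p53 and Rb/p53/p130 tumours. Arg1, arginase, rose by 3.79 ± 0.66, 13.8-fold, in Rb/p53 tumours and by 3.56 ± 0.77 in Rb/p53/p130 tumours. Lyve1, a hyaluronan receptor shared with lymphatic vessels, fell by 3.12 ± 0.47 in Rb/p53 and by 3.13 ± 0.56 in Rb/p53/p130 tumours. Mertk, which helps clear dying cells, fell by 2.20 ± 0.40 in Rb/p53 and by 2.57 ± 0.47 in Rb/p53/p130 tumours. Of the other rises in Rb/p53 tumours, named after their values were seen, Ms4a7 was higher by 1.94 ± 0.33 and Gpnmb by 1.39 ± 0.51.

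Of 7 monocyte genes, 0 were called higher and 5 lower in Rb/p53 tumours, 6 in Rb/p53/p130 tumours. In Rb/p53 tumours Ace, of patrolling monocytes and lung capillaries, fell by 3.20 ± 0.36, the chemokine receptor Ccr2 fell by 2.77 ± 0.55 and F13a1, a clotting factor, fell by 2.34 ± 0.63. Of 15 genes of leukocyte identity and the oxidative burst, 0 were higher and 10 lower in Rb/p53 tumours, 5 in Rb/p53/p130 tumours. Ptprc, the CD45 antigen of all leukocytes, fell by 2.27 ± 0.45 in Rb/p53 tumours, the actin bundler Lcp1 by 1.97 ± 0.48 and the lysosomal Laptm5 by 1.76 ± 0.42.

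Xcr1, a chemokine receptor of cross-presenting dendritic cells, was the only one of the 2 listed dendritic genes measured, and it was at or below the array's lower limit in every sample, at 4.39 to 4.68 in Rb/p53/p130 tumours, 4.28 to 4.85 in Rb/p53 tumours and 4.33 and 4.37 in normal lung. No fold was computed. Of 13 other dendritic cell genes, Rb/p53 tumours had 1 called higher and 11 lower, with a median change of -1.18, and Rb/p53/p130 tumours had 1 and 9, with a median of -1.28. Klrd1, shared with natural killer cells, was at least 4.77-fold lower in Rb/p53 tumours. Zbtb46, which marks conventional dendritic cells and also endothelium, fell by 2.58 ± 0.41, and Tlr3, a sensor of double-stranded RNA, by 2.31 ± 0.45. The gene that rose was Batf3, a transcription factor of the cross-presenting type, by 1.46 ± 0.24 in Rb/p53 and 1.62 ± 0.29 in Rb/p53/p130 tumours.

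Of 9 neutrophil genes measured, 0 were called higher and 2 lower in each tumour type, and some spread widely among tumours. Of all genes 20.5% were called lower in Rb/p53 and 15.6% in Rb/p53/p130 tumours. In a limma fit of only the 5 arrays of Rb/p53/p130 tumours and normal lung, where 43.1% of all genes were called, 7 of the 9 were called lower: Csf3r, Mmp9, S100a8, S100a9, Camp, Ngp and Il1b. That fit does not use the spread among Rb/p53 tumours. Csf3r, the receptor for G-CSF, was at 5.71, 5.58 and 5.56 in Rb/p53/p130 tumours, from 5.40 through 5.83 to 6.38 in Rb/p53 tumours and at 7.26 and 6.75 in normal lung. All tumours lay below both lungs, and it fell by 1.16 ± 0.22 in Rb/p53 (limma adjusted p = 0.000972) and 1.39 ± 0.26 in Rb/p53/p130 tumours (0.00121), in every leave-one-out fit.

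Mmp9, a gelatinase stored in neutrophil granules, was at 6.31, 6.05 and 5.93 in Rb/p53/p130 tumours, from 5.59 through 6.22 to 7.23 in Rb/p53 tumours and at 7.18 and 7.42 in normal lung. Rb/p53 tumour 10 lay between the lungs. It fell by 1.18 ± 0.31 in Rb/p53 tumours (limma adjusted p = 0.00923) and by 1.20 ± 0.37 in Rb/p53/p130 tumours (0.0264). Both calls were lost without either lung (-1.32 to -1.06, 0.052 to 0.15), the second also without tumour 12 (-1.18, 0.0658) or 13 (-1.12, 0.0736), and its second probe set changed by -0.23 in Rb/p53 tumours (0.621).

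The calprotectin genes spread widely between tumours. S100a8 was at 8.25, 7.87 and 6.57 in Rb/p53/p130 tumours, from 6.28 through 8.35 to 11.40 in Rb/p53 tumours, and at 10.33 and 10.52 in normal lung. S100a9 was at 6.69, 6.54 and 5.80 in Rb/p53/p130 tumours, from 5.30 through 6.83 to 11.00 in Rb/p53 tumours, and at 9.97 and 10.40 in normal lung. For both genes the Rb/p53/p130 tumours lay below the lungs, while Rb/p53 tumours 2 and 10 passed both lungs and tumour 3 lay between them for S100a8.

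Neither gene was called in the fit of all arrays. The change was -1.83 ± 1.11 for S100a8 (limma adjusted p = 0.239) and -2.59 ± 1.24 for S100a9 (0.133) in Rb/p53 tumours, and -2.86 ± 1.31 (0.132) and -3.84 ± 1.47 (0.0709) in Rb/p53/p130 tumours. Without tumour 2, S100a9 was called in both (-2.97, 0.0452 in Rb/p53; -3.84, 0.035 in Rb/p53/p130), and in Rb/p53/p130 tumours also without tumour 10 (-3.84, 0.0451). In Rb/p53/p130 tumours S100a9 was further called with array weights (-3.75, limma adjusted p = 0.0196), over bright probe sets alone (-3.84, 0.0477) and with only those 5 arrays fitted (-3.84, 0.000304), and S100a8 in the last of these (-2.86, 0.00545). Ngp, a granule protein of immature neutrophils, was likewise called in both without tumour 2 (-1.16, 0.00473 in Rb/p53; -1.35, 0.00623 in Rb/p53/p130) and in neither with it in the fit of all arrays; in Rb/p53/p130 tumours array weights (-1.34, 0.023) and the 5-array fit (-1.35, 0.00609) also called it. Camp, an antimicrobial peptide precursor, Ltf, lactoferrin, Clec4d, a lectin receptor, and Il1b, an inflammatory cytokine, changed by -0.83 to 0.52 in Rb/p53 tumours and were not called. Of 14 other neutrophil genes, 0 were higher and 2 lower in Rb/p53 tumours, namely the peptide receptor Fpr2 (-2.40 ± 0.72) and Cd177 (-1.53 ± 0.55), and 0 were called in Rb/p53/p130 tumours.

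**Figure D3:**
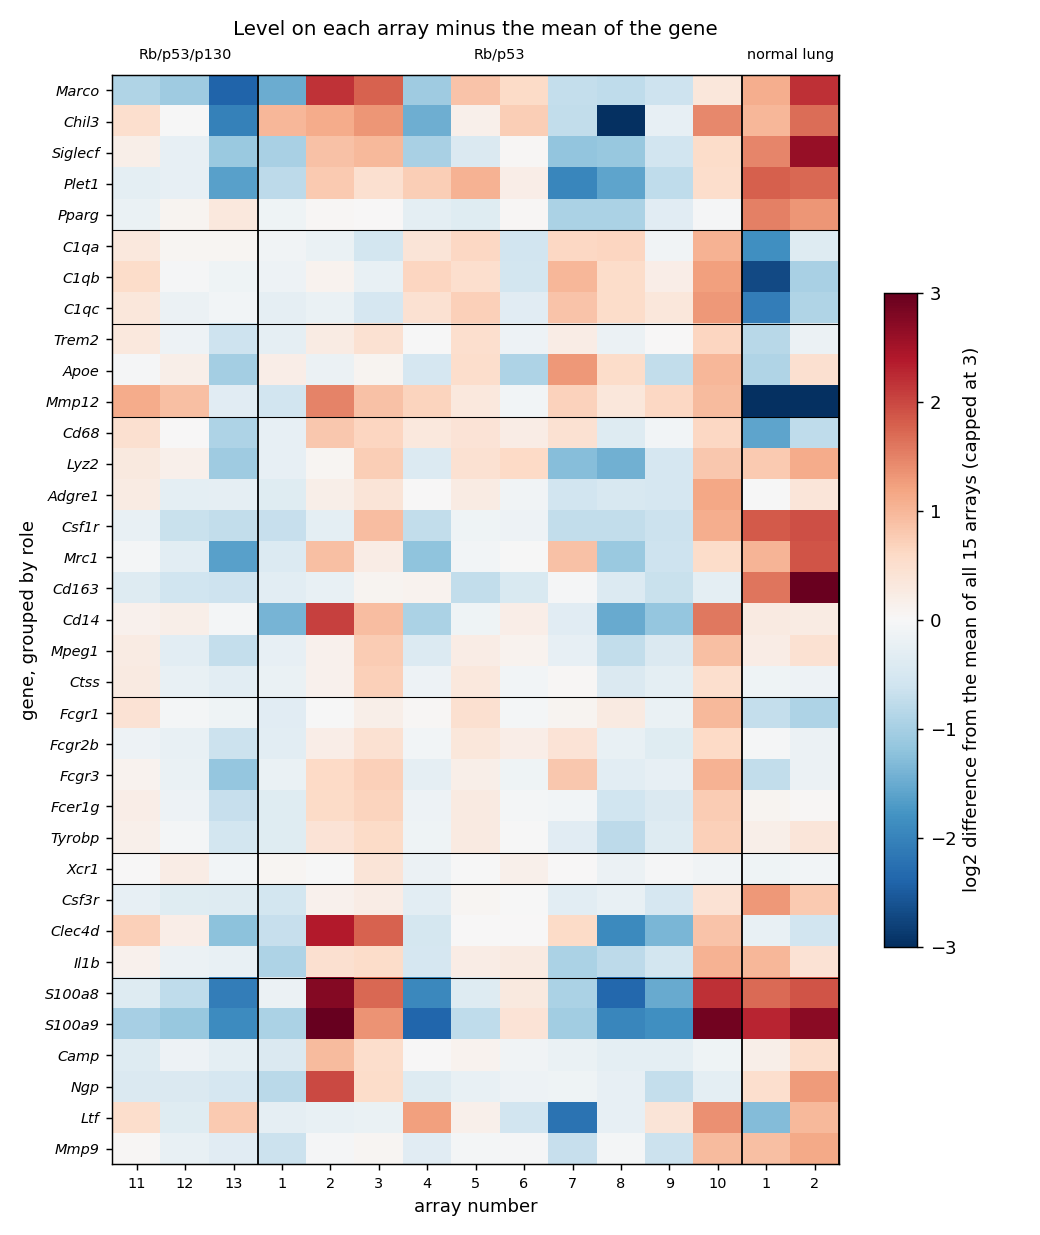
Log2 level of 35 genes (rows, by role) on 15 arrays (columns: Rb/p53/p130 tumours 11 to 13, Rb/p53 tumours 1 to 10, normal lungs 1 and 2), minus each gene's mean over the arrays, capped at 3. Normal lung 1 is lowest for the C1q genes and Mmp12, and S100a8 and S100a9 are high in tumours 2, 3 and 10 and in both lungs.

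Between tumour genotypes 0 of the 35 genes were called, where 0.0715% of all genes were, and no gene's arrays separated the genotypes, where 1.97% of all genes did. At an unadjusted p under 0.05 there were 2. Marco was lower in Rb/p53/p130 than in Rb/p53 tumours by -1.55 (95% interval -3.02 to -0.089, limma p = 0.0391, adjusted p = 0.461), and Fcgr2b by -0.46 (-0.89 to -0.032, p = 0.037, adjusted p = 0.452). The log2 difference was -0.21 for C1qb (-1.01 to 0.59), -0.27 for C1qc (-1.02 to 0.49), -0.032 for C1qa (-0.77 to 0.71) and 0.025 for Mmp12 (-0.78 to 0.83). It was -0.40 for Chil3 (-2.52 to 1.72) and -1.25 for S100a9 (-3.51 to 1.01). These intervals hold differences of over 2-fold either way for Chil3 and S100a9, so no likeness of the genotypes was shown for them. The median over the list was -0.24, against 0.008 over all genes. Rb/p53/p130 tumours were taken 6 months after infection and Rb/p53 tumours after 8 to 12. Genotype and time therefore cannot be told apart in these differences.

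Across the 10 Rb/p53 tumours the C1q genes varied together. C1qb correlated with C1qc at Pearson r = 0.945 (Spearman rho = 0.939, permutation p = 7e-05, adjusted p = 0.00394) and with C1qa at r = 0.943 (rho = 0.927, permutation p = 0.00014, adjusted p = 0.00592). Without the 2 tumours farthest from the median of C1qb the values were 0.932 and 0.894. All 3 genes were highest in tumour 10. Of the 34 relations of C1qb with the other genes these 2 passed, and their median r was 0.069. The nearest others were Apoe (r = 0.712, adjusted p = 0.0743) and Fcgr1 (0.655, 0.0978), with Xcr1, at the array's limit, at -0.657 (0.0978). In all, 169 relations of 5 genes (C1qb, Marco, S100a8 and the lung cell markers Sftpc and Pecam1) were tested together, and 32 passed.

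**Figure D4:**
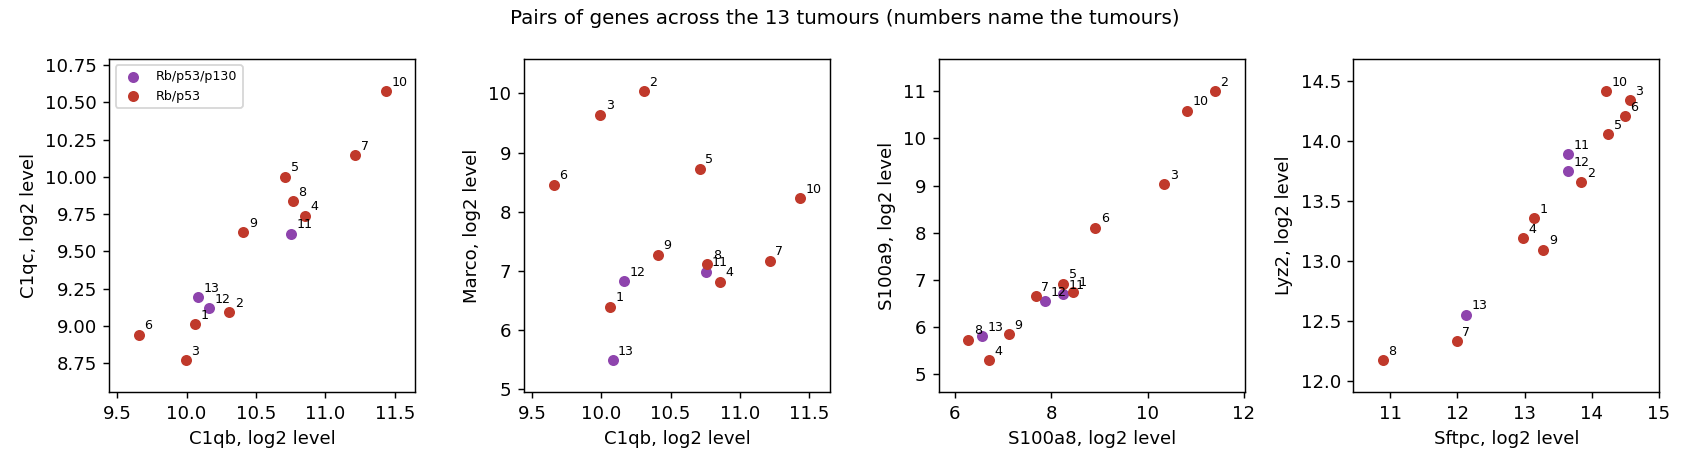
Log2 levels of 4 pairs of genes in 13 tumours, 3 Rb/p53/p130 and 10 Rb/p53; each point is a tumour and its number. C1qc follows C1qb and S100a9 follows S100a8 along a line, Lyz2 follows the surfactant gene Sftpc, and Marco shows no such line with C1qb.

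Over all 10 Rb/p53 tumours, alveolar macrophage genes had negative r with the C1q genes. C1qb and Marco had r = -0.276 (rho = -0.346, permutation p = 0.434, adjusted p = 0.581), and over the 15 pairs of an alveolar with a C1q gene r lay between -0.545 and -0.159, with a median of -0.315. This is a description over the same 10 tumours, in 6 of which Siglecf lay below the array's lower limit. Without the 2 tumours farthest from the median of Marco, its r with C1qa and C1qc turned positive, at 0.112 and 0.255. Without the 2 farthest from the median of C1qb, its r with the alveolar genes was -0.806 to -0.359. Among the alveolar genes the median of 10 pairs was 0.666, and among the C1q genes that of 3 pairs was 0.945. The alveolar genes' median r was 0.69 with neutrophil surface genes and Il1b and 0.61 with phagocyte genes. It was 0.58 with Fc receptor genes and with neutrophil granule genes, 0.48 with Xcr1 and 0.21 with Trem2, Apoe and Mmp12. High r was thus not particular to pairs of alveolar genes. The mean of the alveolar genes was lowest in tumour 8, at 6.57, and highest in tumour 2, at 9.34, whereas the C1q mean was 10.49 in tumour 8 and 9.81 in tumour 2.

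Some genes of alveolar macrophages and neutrophils were correlated with each other, and some with markers of the lung around the tumour. Marco passed with 10 of 33 relations, among them Siglecf (r = 0.894, rho = 0.818, permutation p = 0.00071, adjusted p = 0.012) and Camp (r = 0.880, rho = 0.806, permutation p = 0.0005, adjusted p = 0.0114). None of the 10 passed by rho as well. Siglecf lay below the array's lower limit in 6 of the 10 Rb/p53 tumours, so its r values here rest partly on levels without order. S100a8 passed with 9 of 32, of which 6 also by rho: S100a9 at r = 0.976 (rho = 0.976, permutation p = 2e-05, adjusted p = 0.00338, 0.961 without the 2 farthest tumours), Cd14 at 0.928, Siglecf at 0.907 and Chil3 at 0.798 were among them. Among the neutrophil genes Ltf had the lowest r with S100a8, 0.099 (permutation p = 0.79), against 0.592 to 0.976 for the others. The surfactant gene Sftpc, of alveolar type 2 cells, passed with 8 of 35. They were led by Lyz2 (r = 0.961, rho = 0.891, permutation p = 4e-05, adjusted p = 0.00338) and included Pparg (0.886) and Chil3 (0.871). Of the 8, only 2 passed by rho as well, Lyz2 and Siglecf. Without the 2 tumours farthest from the median of Sftpc, r was 0.940 for Lyz2, 0.540 for Pparg and 0.624 for Chil3. Sftpc did not pass with Marco (r = 0.649, adjusted p = 0.107) or S100a8 (0.704, 0.0734), and Il1b was the only neutrophil gene with which it did. Pecam1, of endothelium, passed with 3 of 35, Lyz2 (0.919), Il1b (0.844) and Csf1r (0.737). Of these 3, Lyz2 and Csf1r passed by rho as well. Neither lung marker passed with a C1q gene (r = -0.425 to -0.324 for Sftpc and -0.238 to -0.082 for Pecam1). The part of lung tissue within the tumour samples in these relations was not tested.

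**Figure D5:**
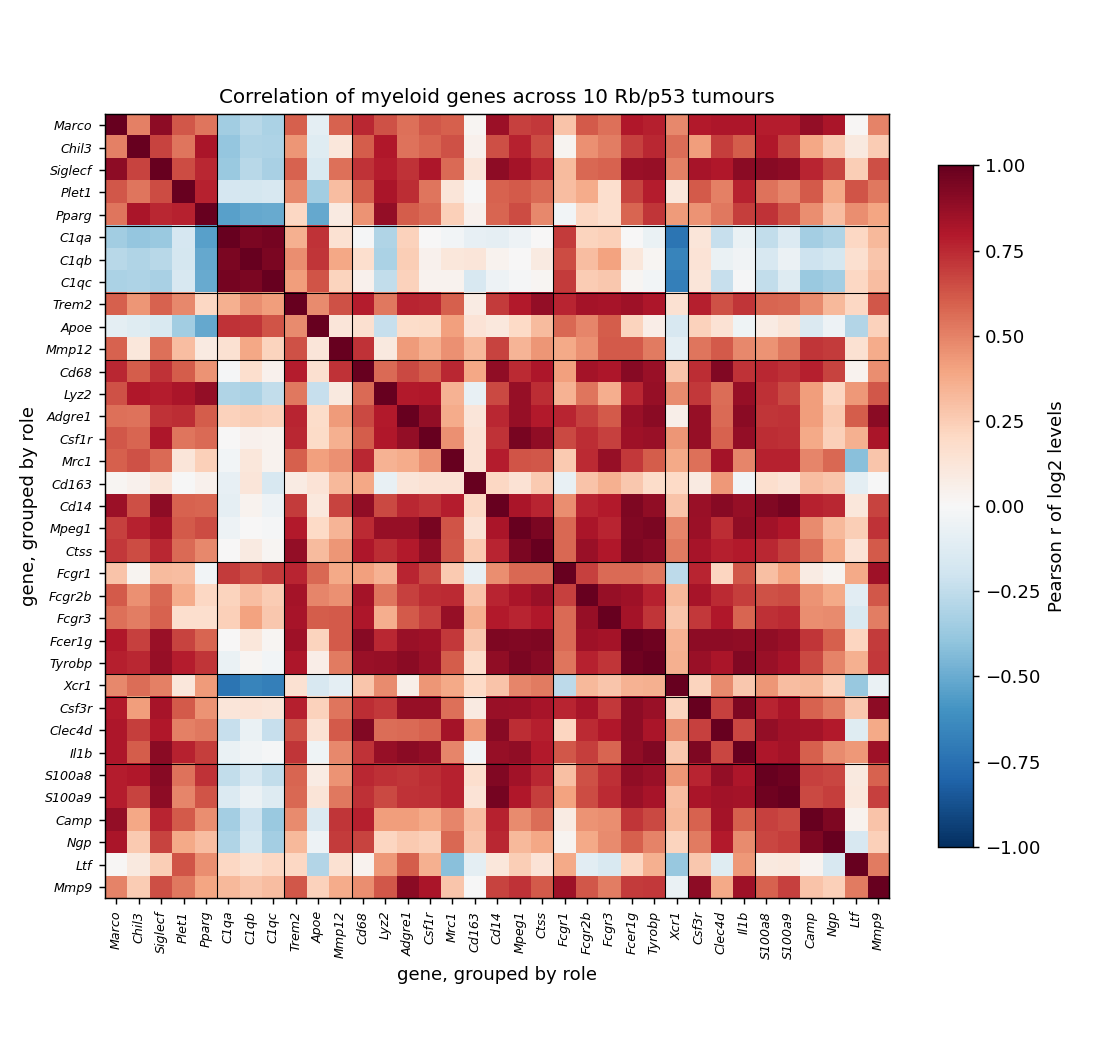
Pearson r of log2 levels between 35 genes across 10 Rb/p53 tumours, with genes in the same order on both axes, grouped by role. The 3 C1q genes form a block of high r and are near or below 0 with alveolar genes, while phagocyte, Fc receptor and neutrophil genes are mostly positive with each other.

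Fc receptor and general phagocyte genes had a median r of 0.758 over 45 pairs, and C1q and phagocyte genes 0.0066 over 27 pairs. Tumour 10 was highest of the Rb/p53 tumours for the C1q genes and for Csf1r, Adgre1, Mpeg1, Lyz2, Fcgr1, Fcgr2b, Fcgr3, Fcer1g and Tyrobp. Tumour 8 was lowest for Cd68, Lyz2, Cd14, Mpeg1, Ctss, Fcgr3, Fcer1g and Tyrobp, while its C1qb level of 10.77 lay above the median.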

How the data were processed

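RNA was isolated with Trizol, amplified in repeated rounds with a RiboAmp kit and hybridised to Affymetrix 3' arrays of the mouse genome, per the labels' protocols. What the authors deposited is a log2 value for each probe set on each array, from RMA according to the submitters' processing notes (version not given). They ran from 3.11 to 15.2, with array medians of 6.58 to 6.68. No 2 arrays were identical, and the labels name no batch. RMA sets distributions alike, and amplification can lower probe sets far from the 3' end.

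After removal of 64 controls from 45101 probe sets, 45037 were tested; 34945 had 1 symbol in the probe table, 932 had several and 9160 had none, and 34741 matched RefSeq (GRCm38.p6) by gene ID. Each gene was read from its probe set with the highest mean. Groups came from the titles. limma 3.58.1 (R 4.3.3) fitted all 15 arrays at once with lmFit and eBayes, with Benjamini-Hochberg adjustment across probe sets and calls at 0.05. The fit was tested on simulated data. Folds at the array's limit are lower bounds. Correlations used 100000 two-sided permutations (Python 3.11.15), adjusted over 169 relations. Figures used matplotlib 3.10.9.

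The genes and lists were chosen with earlier results of these data known. All 39 listed genes are accounted for; of other lists, counts and at most 3 called genes with the largest change are named, unless said otherwise. Alternatives left out each array, normalised by quantiles again, centred arrays, kept bright probe sets, fitted only the groups compared, weighted arrays, added the Gapdh difference, took a robust prior with a trend, averaged probe sets, dropped suffixed ones, blocked on the array number and required a change of 1.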

Additional observations from a re-analysis of the deposited data

Results flagged for a closer look

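Among 35 genes tested for a single tumour far from the other Rb/p53 tumours, 3 were found, by a gap to the nearest tumour above the critical share of the range, 0.466 for 10 samples. Chance gives such a finding in about 1 in 20 genes tested. Chil3 was at a log2 level of 7.48 in tumour 8, against 10.47 in the next tumour. Ngp was at 7.81 in tumour 2, against 6.38 in the next. Mmp9 was at 7.23 in tumour 10, against 6.33 in the next.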

How the results depend on the processing

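With 14 genes called in Rb/p53 tumours against normal lung, 2 were called when a change of 1 was required, 0 with the Gapdh difference as a covariate, and 7 to 16 when single arrays were left out (7 without normal lung 1, 9 without normal lung 2, 16 without tumour 2). With 13 called in Rb/p53/p130 tumours the counts were 2, 0 and 7 to 15 (7 without normal lung 1, 8 without normal lung 2, 8 without tumour 13). Fitting only the 5 arrays compared gave 18 (4 higher, 14 lower) in Rb/p53/p130 tumours. Between genotypes 0 genes were called under all of these. The Gapdh covariate turned the sign of C1qa (-0.86) and C1qc (-0.64) in Rb/p53 tumours and of C1qb (-0.12) and C1qc (-1.03) in Rb/p53/p130 tumours; the cause was not tested. Pparg, Mmp12, Csf1r, Cd163 and Csf3r, 5 genes in each comparison with normal lung, were called without any single array, and 9 and 8 other calls were lost without at least 1. Without the 2 tumours farthest from the median, 9 of all 169 relations passed, against 32 with every Rb/p53 tumour, and the 9 need not be among the 32.

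The deviations of same-numbered tumours and lungs from their group means had r = -0.0043 and -0.055, so the numbers are not shown to pair samples. With 2 lungs, the deviations of one mirror those of the other, so this check cannot decide whether samples are paired. With the array number as a replicate block, which rests on tumours 1 and 2 and both lungs, 9 genes were called (2 higher, 7 lower) in Rb/p53 tumours. Over the 35 genes and all alternatives, 836 values in Rb/p53 tumours kept their side of the threshold, 56 lost the call and 3 gained it. Another 2 reversed, a change of sign in a gene called in either fit. In Rb/p53/p130 tumours these were 795, 50, 15 and 2, and between genotypes 862 kept their side. Among values that kept their side, some genes called in neither fit changed sign, such as Apoe in Rb/p53 tumours (0.33 to -0.36). Levels under the array's limit have no order, and 2 normal lungs set the precision.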

Other observations

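Markers of other cells were read in the same arrays, where 30.9% of all genes were called in Rb/p53/p130 and 38.8% in Rb/p53 tumours. Of 8 T and natural killer cell markers, 0 were called higher and 4 lower in Rb/p53/p130 tumours, and 0 and 5 in Rb/p53 tumours. Of 6 B and plasma cell markers, 2 and 6 were called lower in these groups, with median log2 changes of -1.66 and -2.24. Of 4 erythroid markers, 2 were called lower in each, and of 6 mast cell and basophil markers, 1 and 2. Fibroblast markers, 7 in all, had 2 called lower in each tumour type, and club cell markers, also 7, had 2 in Rb/p53/p130 and 3 in Rb/p53 tumours. Hepatocyte markers, 8 measured, had 1 called higher in each.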
